A study of Mus musculus with 70 samples.

Results

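The 10 genes described here encode the NF-kappaB transcription factor subunits, the regulators that feed back on them, and the cytokine Tnf. They were taken as named genes, by symbol, from the 52636 genes of the count table. The subunits are Nfkb1, Nfkb2, Rel, Rela and Relb, the regulators are Nfkbia, Nfkbiz, Tnfaip3 and Bcl3, and all 10 passed the filter on low counts in every cell type. RNA was sequenced from B cells, T cells and the Ly6C high and Ly6C low monocytes, each sorted from blood.

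The mice were young adult C57BL/6J males. For 10 days the stressed mice were defeated daily by a CD-1 aggressor, a model known as chronic social defeat stress, and were then split by social interaction into susceptible (SUS) and resilient (RES) mice. CON mice were not defeated. The split rests on behaviour after the stress, so SUS and RES are not randomized groups. After 2 libraries were set aside, 68 remained: 6 per group and cell type, except 4 CON libraries of Ly6C low monocytes, 5 RES libraries of B cells and 5 RES libraries of T cells. The sample labels name brain as the source, whereas the design text and the study's methods describe blood leukocytes.

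NF-kappaB subunits act as dimers. In resting cells IkB proteins such as the product of Nfkbia hold them in the cytoplasm, and receptor signals lead to IkB breakdown, entry of the dimers into the nucleus and transcription of target genes. Several of these targets are themselves inhibitors, which closes a feedback loop. In monocytes the system is known for the response to microbial products and cytokines, and in B cells the alternative branch through Nfkb2 and Relb is known for its part in survival and maturation.

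Library totals ran from 19769835 to 67038231 counts. Levels are given as CPM, read counts scaled to library size with TMM factors, and markers of the 4 sorted types matched their labels in the 68 libraries. The 5 T cell markers, for example, summed to 1530 to 2340 CPM in T cell libraries and to 0.301 to 6.22 CPM in Ly6C high monocytes. Other markers were less clean, since the Ly6C low libraries had up to 135 CPM of these 5 and also held NK cell markers. The sum of 4 NK cell markers there had medians of 285 CPM for CON, 237 CPM for SUS and 331 CPM for RES mice. For T cell libraries these medians were 80.3, 85.3 and 81.6 CPM, and no Ly6C high library exceeded 18.1 CPM. The 4 Ly6C high markers summed to 3960 to 7590 CPM in their own type. They summed to 670 to 1020 CPM in B cells, 740 to 982 CPM in T cells and 168 to 560 CPM in Ly6C low monocytes. The 5 Ly6C low markers summed to 5120 to 7250 CPM in their own type, 530 to 1320 CPM in Ly6C high monocytes and 679 to 1020 CPM in T cells. Libraries 52 and 70, the 2 set aside, went against their labels. In the one labelled as RES B cells Cd79a was at 5.76 and Cd3e at 412 CPM, and in the one labelled as RES T cells they were at 1420 and 0.143 CPM. Red cell RNA moved with stress. The summed level of 6 red cell genes in Ly6C high monocytes ran from 343 to 1220 CPM for CON, from 1100 to 8990 CPM for SUS and from 1080 to 4350 CPM for RES mice. None of the 6 was at 0, and 6 of 6 passed the test between SUS and CON mice, against 1 between RES and CON mice. The sum of 5 platelet markers was 5.65 to 10.0 CPM in CON mice and 5.66 to 50.5 CPM in SUS mice, with 1 of 5 passing. The sum of 4 dendritic cell markers was 110 to 148 CPM in CON mice, 30.4 to 92.2 CPM in SUS mice, which did not overlap with CON, and 69.3 to 143 CPM in RES mice. None of the 4 was at 0 in all libraries of a group, and of the 3 that were tested 1 was lower in SUS mice and 0 passed in RES mice. Of the 4 markers of the Ly6C high type itself, 2 were higher in SUS mice. The part of dendritic cells in the changes of the members was not tested.

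Because many NF-kappaB regulators are themselves targets of the pathway, the stretch before each start site was searched on both strands for the classical NF-kappaB consensus, a motif of 10 bases. RefSeq promoter windows of GRCm38.p6 held an entry for 7 of the 10 genes, and none for Nfkb1, Relb and Nfkbiz. The consensus was found in the 250 bases before a start site for 4 of these 7, compared with 8.23% of the 27025 genes in the same table. The 4 were Nfkb2, Rel, Nfkbia and Tnfaip3. The following stretches are shown because they let the feedback targets be compared by eye. They run 5′ to 3′ on the strand of the gene, and capitals mark the match, which in Nfkbia lies on the other strand.
Nfkb2: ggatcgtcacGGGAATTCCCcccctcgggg
Nfkb2, a later start site: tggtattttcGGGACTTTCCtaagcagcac
Rel: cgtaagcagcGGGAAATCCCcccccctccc
Nfkbia: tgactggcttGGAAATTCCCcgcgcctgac
Tnfaip3: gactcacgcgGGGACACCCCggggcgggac
They lie at chr19:46304688-46304717 and chr19:46305695-46305724 on the plus strand, and at chr11:23771042-23771071, chr12:55492657-55492686 and chr10:19015516-19015545 on the minus strand. The matches begin 39, 225, 92, 29 and 125 bases before the annotated starts, in the order printed. The first Nfkb2 match and the matches in Rel and Tnfaip3 read as the consensus on both strands. Before the first start sites of these genes 3 to 4 matches were found, some overlapping. Such a stretch counts once for each strand among them, so the distinct positions are fewer. No match was found in the windows of Rela, Bcl3 and Tnf, which says only that these letters are not in those windows.

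The question for the stressed mice was how the members of the pathway changed within each cell type. In Ly6C high monocytes of SUS mice, Bcl3 rose, Nfkbiz and Tnfaip3 fell, and none of the 5 subunits passed the test. Thus 3 of 10 members passed at an adjusted p under 0.05, where 12.6% of the 16955 genes tested passed (1488 of the 2139 higher, compared with 1746 of 3139 with DESeq2 and 1164 of 1430 with offsets for GC content and length). In the upward direction this was 1 member against 8.78% of all genes, and in the downward direction 2 members against 3.84%. With a further threshold, an absolute log2 fold change above 1, only Bcl3 was called, against 3.45% of all genes. The median log2 fold change of the members was -0.15, and that of all genes -0.05.

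**Figure D1:**
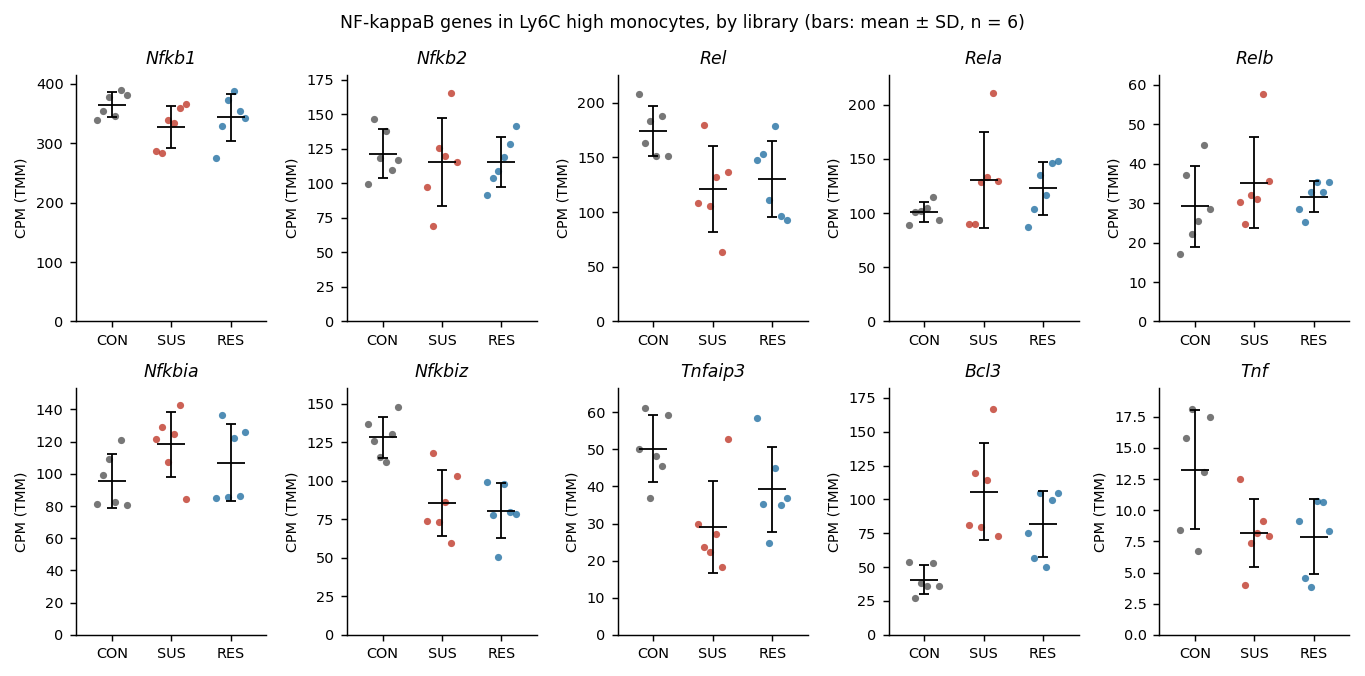
Level of each member in Ly6C high monocytes (CPM, linear axis from 0), with 1 point per library, horizontal bars for the mean and error bars for the SD of 6 libraries per group. All 6 SUS libraries lie above the CON libraries for Bcl3, and all 6 RES libraries lie below them for Nfkbiz.

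Bcl3 (ENSMUSG00000053175, chromosome 7 of GRCm38 from 19808462 to 19822770, minus strand) encodes an atypical IkB protein that works in the nucleus with p50 and p52 homodimers. In Ly6C high monocytes it was at 26.9 CPM in the lowest CON library, 37.1 CPM at the median and 53.7 CPM in the highest. In SUS mice it was at 72.9, 97.7 and 167 CPM, so that the groups did not overlap. In RES mice it was at 50.2, 87.5 and 105.01 CPM, and 5 of 6 libraries lay above every CON library. Group means were 40.6 ± 10.6 CPM for CON, 105.7 ± 35.7 CPM for SUS and 81.9 ± 24.6 CPM for RES (SD, 6 libraries each). In edgeR's quasi-likelihood fit this was a log2 fold change of 1.36 (SE 0.23, adjusted p = 0.00144) for SUS vs CON and 1.00 (SE 0.23, adjusted p = 0.0201) for RES vs CON. Bcl3 shares 161 exon bases with the antisense gene Gm16175, whose counts stayed between 0 and 41 in these libraries, compared with 1049 to 6497 for Bcl3.

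Nfkbiz (ENSMUSG00000035356, chromosome 16 from 55811375 to 55838899, minus strand) encodes IkB-zeta, a nuclear cofactor for secondary response genes such as Il6. In Ly6C high monocytes its CON libraries ran from 112 CPM over a median of 128 CPM to 148 CPM. Its SUS libraries ran from 59.7 over 79.9 to 118 CPM, with 5 of 6 below every CON library. Its RES libraries ran from 50.5 over 79.2 to 99.1 CPM and did not overlap with CON. On the log2 scale the change was -0.61 (SE 0.17, adjusted p = 0.0185) in SUS and -0.68 (SE 0.17, adjusted p = 0.0262) in RES mice. So the atypical IkB genes Bcl3 and Nfkbiz changed in opposite directions.

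Tnfaip3 (ENSMUSG00000019850, chromosome 10 from 19000910 to 19015657, minus strand) encodes A20, a ubiquitin-editing enzyme that shuts off signalling upstream of the IkB kinase complex. It was at 36.8, 49.1 and 61.2 CPM in the lowest, median and highest CON library of Ly6C high monocytes. In SUS mice it was at 18.2, 25.4 and 52.8 CPM. All SUS libraries but the highest, number 17, lay below every CON library. This gave a log2 fold change for SUS vs CON of -0.82 (SE 0.23, adjusted p = 0.0193), and of -1.102 (adjusted p = 0.00104) without library 17. In RES mice Tnfaip3 was at 24.7, 36.1 and 58.4 CPM, with a log2 fold change of -0.36 (SE 0.23, adjusted p = 0.377). Without CON library 16 neither Nfkbiz (-0.53, adjusted p = 0.0622) nor Tnfaip3 (-0.73, adjusted p = 0.0566) passed in SUS mice, and without SUS library 8 Tnfaip3 did not (-0.75, adjusted p = 0.0507).

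Nfkbia (ENSMUSG00000021025, chromosome 12 from 55489410 to 55492647, minus strand) encodes IkB-alpha, the main cytoplasmic inhibitor, and did not pass the test. Its CON libraries averaged 95.6 ± 17.0 CPM, its SUS libraries 118 ± 20.2 CPM and its RES libraries 106.9 ± 23.8 CPM (SD, 6 libraries each), and the groups overlapped. Its log2 fold change was 0.28 (SE 0.16, adjusted p = 0.278) for SUS vs CON and 0.15 (SE 0.16, adjusted p = 0.648) for RES vs CON.

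Among the subunits, Rel (ENSMUSG00000020275, chromosome 11 from 23736847 to 23770970, minus strand), which encodes c-Rel, came nearest to the threshold. It was at 174 ± 22.7 CPM in CON and 121 ± 39.1 CPM in SUS mice, with 5 of 6 SUS libraries below every CON library. Its log2 fold change was -0.56 (SE 0.20, adjusted p = 0.0624), and it was -0.72 (adjusted p = 0.0136) without SUS library 5, which had the highest level of its group. It passed with DESeq2 (-0.62, adjusted p = 0.0239). With offsets for GC content and exon length it was -0.03 (adjusted p = 0.93).

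In the remaining subunits the groups overlapped and no change passed in edgeR. With DESeq2 Nfkb1 did (-0.25, adjusted p = 0.0319). Rela (ENSMUSG00000024927, chromosome 19 from 5637483 to 5648130, plus strand), the p65 subunit with a transactivation domain, was at 101 ± 8.99 CPM in CON and 130 ± 44.1 CPM in SUS mice, with a log2 fold change of 0.34 (SE 0.18, adjusted p = 0.226). Relb (ENSMUSG00000002983, chromosome 7 from 19606217 to 19629438, minus strand), the partner of p52 in the alternative branch, was at 29.2 ± 10.2 and 35.2 ± 11.5 CPM, with a log2 fold change of 0.25 (SE 0.22, adjusted p = 0.514). In both genes SUS library 14 was the highest, with 211 CPM of Rela and 57.6 CPM of Relb. Nfkb1 (ENSMUSG00000028163, chromosome 3 from 135584655 to 135691547, minus strand), the source of p105 and p50, was at 365 ± 20.7 and 328 ± 35.4 CPM, with a log2 fold change of -0.18 (SE 0.11, adjusted p = 0.286). Nfkb2 (ENSMUSG00000025225, chromosome 19 from 46304320 to 46312385, plus strand), the source of p100 and p52, was at 122 ± 17.7 and 115 ± 32.0 CPM, with a log2 fold change of -0.11 (SE 0.16, adjusted p = 0.734). Nfkb2 shares 299 exon bases with Psd on the other strand, and the strand setting of the counting was not given in the sources used here.

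Tnf (ENSMUSG00000024401, chromosome 17 from 35199381 to 35202007, minus strand), the cytokine that both activates the pathway and is a target of it, was low in Ly6C high monocytes and was not higher in stressed mice. It was at 6.72, 14.4 and 18.2 CPM in the lowest, median and highest CON library. In SUS mice it was at 3.98, 8.02 and 12.5 CPM, and in RES mice at 3.80, 8.72 and 10.7 CPM. The groups overlapped, and the log2 fold changes of -0.72 (SE 0.32, adjusted p = 0.141) and -0.76 (SE 0.32, adjusted p = 0.162) did not pass.

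Between RES and CON mice, the 2 members of 10 that passed in Ly6C high monocytes were Bcl3 and Nfkbiz, where 4.97% of all genes passed. Of these 842 genes 629 were higher, compared with 824 of 1635 with DESeq2 and 847 of 903 with offsets for GC content and length, and 108 (without RES library 18) to 1841 (without SUS library 14, which is outside this contrast but in the same fit) passed with each library left out. Upward this was 1 member against 3.71% of all genes, and downward 1 member against 1.26%. No member was called with the further threshold on the fold change, against 0.997% of all genes. SUS vs CON and RES vs CON share the CON libraries, so their agreement is not independent. Without RES library 9, 15 or 18 neither gene passed, Bcl3 then having adjusted p-values of 0.0507 to 0.0608, and without CON library 1 or 16 Nfkbiz did not. Between SUS and RES mice 0 of 10 members passed, against 0.0059% of all genes. By an unadjusted p under 0.05 in edgeR it was 0 members, against 3.66% of all genes. DESeq2 also passed 0 members there, against 0.106% of the genes it adjusted. The widest gap was that of Tnfaip3, with a log2 fold change of -0.46 (-0.91 to -0.02 as a normal 95% interval, edgeR's unadjusted p = 0.0537), followed by Bcl3 with 0.36 (-0.09 to 0.80).

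Red cell RNA and GC content moved with these contrasts. With red cell RNA (the 6 genes averaged as log2 CPM) as a covariate, no member passed, and 1 gene in all passed between SUS and CON mice. In SUS mice the log2 fold change was then 1.09 for Bcl3 (adjusted p = 0.333), -0.23 for Nfkbiz (adjusted p = 0.93) and -0.39 for Tnfaip3 (adjusted p = 0.886). In RES mice it was 0.78 for Bcl3 (adjusted p = 0.957) and -0.32 for Nfkbiz (adjusted p = 0.999). Since the red cell sums of CON and stressed mice hardly overlap, the covariate and stress cannot be told apart in these libraries.

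Among the 16955 genes tested in Ly6C high monocytes, transcripts with more GC were higher in stressed mice. The trend was computed for this cell type only. Of 5 equal bins of genes by GC content, the lowest (18.1 to 44.0%) had a median log2 fold change for SUS vs CON of -0.46, and the highest (55.0 to 75.5%) one of 0.24. Bcl3, Nfkb2, Relb and Rela are in the highest bin, with 59.3, 59.1, 59.1 and 58.8% GC, and Rel is in the lowest, with 42.5%. Nfkbiz (49.1%) and Tnfaip3 (48.1%) are in the middle bin, whose median was 0.01. Per-library offsets for GC content and exon length were chosen after the data were seen. They moved the median log2 fold change of all genes from -0.05 to 0.11 for SUS vs CON and from -0.03 to 0.22 for RES vs CON. With them the log2 fold changes in SUS mice were 1.16 for Bcl3 (adjusted p = 0.0092), -0.59 for Nfkbiz (adjusted p = 0.0252) and -0.69 for Tnfaip3 (adjusted p = 0.0473). In RES mice they were 0.98 for Bcl3 (adjusted p = 0.0315) and -0.58 for Nfkbiz (adjusted p = 0.0386).

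**Figure D2:**
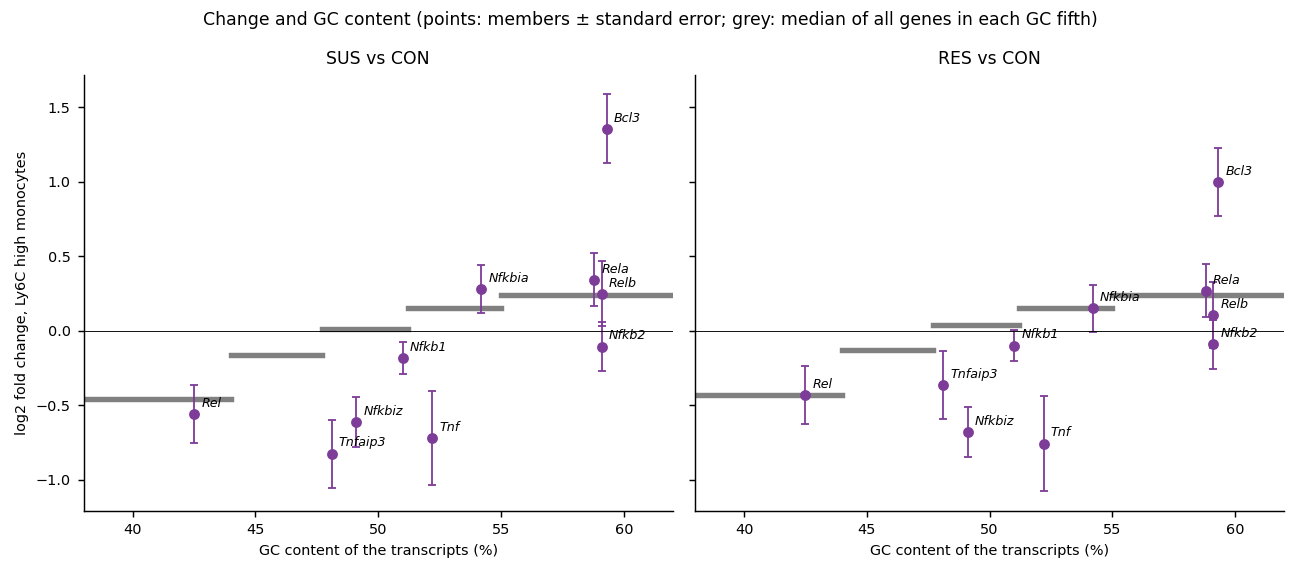
Log2 fold change of each member in Ly6C high monocytes (points, with standard errors) against the GC content of its transcripts in percent, for SUS vs CON (left) and RES vs CON (right). Grey lines give the median of all genes tested in each of 5 bins by GC content, which climbs from -0.46 to 0.24 in SUS mice, while Bcl3 lies far above and Nfkbiz and Tnfaip3 lie below these medians.

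Outside the Ly6C high monocytes 0 of 10 members passed in any contrast. In Ly6C low monocytes 0.241% of all genes passed for SUS vs CON, 0.0256% for RES vs CON and 0% for SUS vs RES. In B cells the shares were 0.00568%, 0% and 0%, and in T cells 0.0424%, 0% and 0%. By an unadjusted p under 0.05, 5 members stood out in Ly6C low monocytes for SUS vs CON and 5 for RES vs CON, against 1 and 1 in B cells and 3 and 1 in T cells (edgeR's quasi-likelihood test). The same held for 9.51% and 9.67% of all genes in Ly6C low monocytes, 3.42% and 3.18% in B cells and 4.8% and 4.11% in T cells. For SUS vs RES these were 2 members and 3.79% of all genes in Ly6C low monocytes, 0 and 1.36% in B cells, and 1 and 2.39% in T cells. The 5 in Ly6C low monocytes for SUS vs CON were Nfkb2, Rel, Tnfaip3 and Tnf, which were lower, and Bcl3, which was higher. Rel (log2 fold change -0.27, adjusted p = 0.3 in edgeR) and Tnfaip3 (-0.33, adjusted p = 0.35) each had 5 of 6 SUS libraries below every CON library. For RES vs CON they were Nfkb2, Rel, Nfkbiz and Tnf, lower, and Bcl3, higher. For SUS vs CON DESeq2 passed 1 member in Ly6C low monocytes, where 1.15% of the genes it adjusted passed, 2 in T cells (0.468%) and 0 in B cells (0.2%).

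Bcl3 had a positive log2 fold change in SUS mice in all 4 cell types. In Ly6C low monocytes the 4 CON libraries had 19.9, 21.3, 21.4 and 40.2 CPM, and the SUS libraries had 27.0, 53.5 and 79.5 CPM at the lowest, median and highest. Its log2 fold change was 1.01 (SE 0.25, adjusted p = 0.126), and 5 of 6 SUS libraries exceeded every CON library. Without CON library 32, the one at 40.2 CPM, it was 1.30 (adjusted p = 0.0453), and without SUS library 33 it was 1.13 (adjusted p = 0.0143). In T cells Bcl3 was at 4.73, 11.6 and 19.4 CPM in CON and 17.5, 26.7 and 44.9 CPM in SUS mice, with a log2 fold change of 1.21 (SE 0.31, adjusted p = 0.263). The 5 RES libraries of T cells had 13.0, 13.7, 16.1, 22.3 and 31.4 CPM, of which 2 lay above every CON library (log2 fold change 0.63, SE 0.32, adjusted p = 1). DESeq2 passed Bcl3 in both, with adjusted p-values of 0.00742 and 0.0264. In B cells, where Bcl3 had its highest CON level, the log2 fold change was 0.20 (SE 0.18, adjusted p = 0.999). Red cell genes summed to higher medians in stressed mice in these cell types too: 591 CPM in CON and 1060 CPM in SUS mice for Ly6C low monocytes, 1480 and 2380 CPM for T cells, and 2780 and 5570 CPM for B cells.

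Nfkbiz pointed the other way in T cells. It was at 37.7, 49.0 and 54.4 CPM in CON and 51.9, 63.8 and 88.3 CPM in SUS mice, and 5 of 6 SUS libraries lay above every CON library. Its log2 fold change was 0.50 (SE 0.12, adjusted p = 0.165), which passed with DESeq2 (adjusted p = 0.0264). The 5 RES libraries had 54.2, 56.8, 60.4, 63.0 and 63.2 CPM, and 4 of them lay above every CON library (log2 fold change 0.33, SE 0.13, adjusted p = 1). In B cells and Ly6C low monocytes of SUS mice it was 0.13 (SE 0.12, adjusted p = 0.999) and 0.05 (SE 0.11, adjusted p = 0.961). The Ly6C low monocytes of the 4 CON libraries had 269.9, 327, 377 and 417 CPM of Nfkbiz, the SUS libraries had 302, 353 and 449 CPM at the lowest, median and highest, and the RES libraries 258, 298 and 309 CPM. There all SUS libraries but 1 exceeded the highest RES library, with a log2 fold change of 0.33 for SUS vs RES (SE 0.10, unadjusted p = 0.00161 and adjusted p = 1 in edgeR).

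Tnf in Ly6C low monocytes, where it was most abundant, was at 47.2, 55.9, 57.8 and 65.2 CPM in CON and at 36.6, 41.4 and 44.2 CPM at the lowest, median and highest in RES mice. The 2 groups did not overlap, and the log2 fold change of -0.49 (SE 0.14, unadjusted p = 0.00137 in edgeR, adjusted p = 0.193) did not pass the correction. In B cells Tnf had 8.85 ± 2.86 CPM in CON and 5.26 ± 2.29 CPM in SUS mice (SD, n = 6 each), with a log2 fold change of -0.74 (SE 0.31, adjusted p = 0.999).

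**Figure D3:**
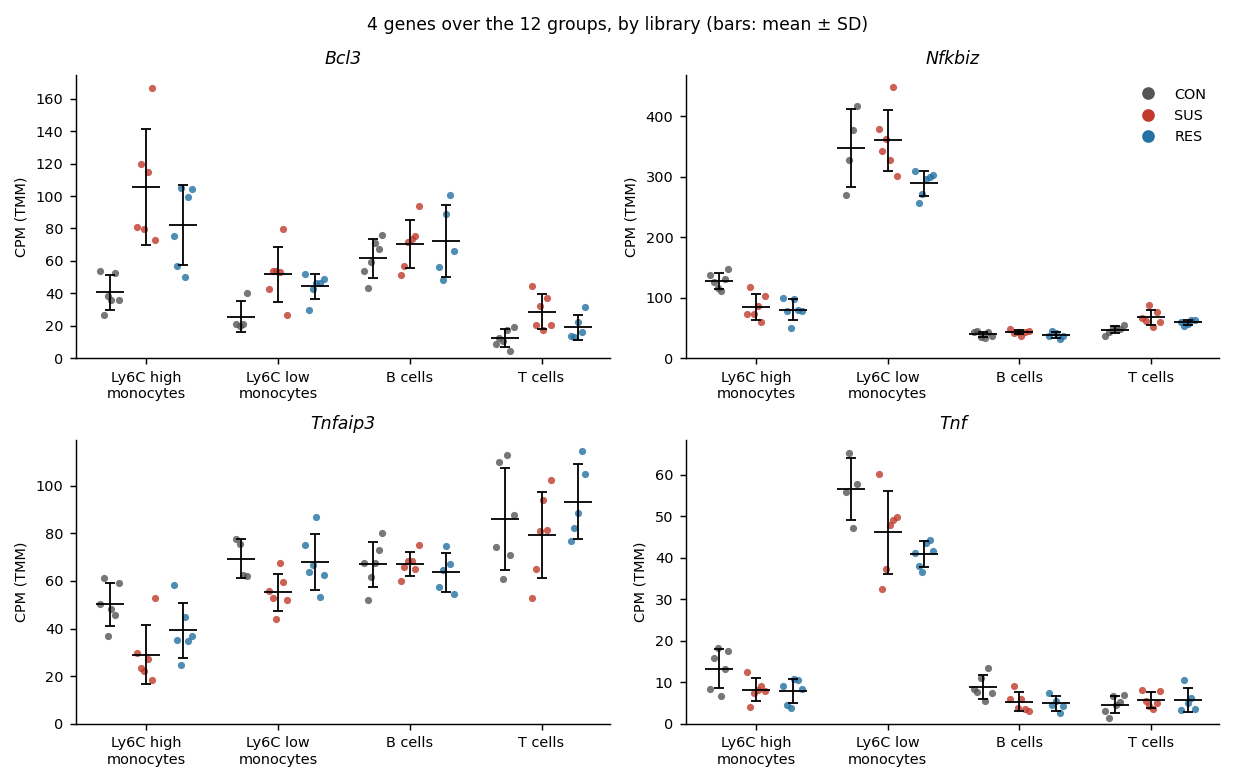
Levels of Bcl3, Nfkbiz, Tnfaip3 and Tnf (CPM, linear axes from 0) in the 12 groups, with 1 point per library, horizontal bars for the mean and error bars for the SD. Nfkbiz and Tnf are highest in Ly6C low monocytes, and the mean of Bcl3 is higher in stressed than in CON mice in each of the 4 cell types, with the libraries set apart from CON only in SUS mice of Ly6C high monocytes.

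An interaction test over 24248 genes compared the SUS vs CON change of Ly6C high monocytes with that of each other cell type. Against T cells 1 of 10 members passed, where 3.22% of all genes did. This was Nfkbiz, whose log2 fold change was lower in Ly6C high monocytes (difference -1.095, SE 0.18, adjusted p = 0.000373). Against B cells 3 of 10 passed, where 6.18% of all genes did: Nfkbiz (-0.71, SE 0.18, adjusted p = 0.0126), Tnfaip3 (-0.79, SE 0.24, adjusted p = 0.0361) and Bcl3 (1.19, SE 0.37, adjusted p = 0.0394). Without CON library 4 or 16, or SUS library 11 or 14, of Ly6C high monocytes, 1 member passed against B cells. Bcl3 was also lost without CON library 7 or 10 and with DESeq2's size factors in edgeR (adjusted p = 0.0671), and Tnfaip3 without SUS library 5 or 8 and with a fit of only the 2 cell types (adjusted p = 0.0681). Without SUS library 17, 2 members passed against T cells. With offsets for GC content and length 0 of these 3 passed against B cells (adjusted p = 0.0541 to 0.185), and Nfkbiz still passed against T cells (-1.05, adjusted p = 0.00373). Against Ly6C low monocytes 0 of 10 passed, where 0.363% of all genes did, and Nfkbiz came nearest (-0.63, SE 0.19, adjusted p = 0.105). It was the 1 member with an unadjusted p under 0.05 in edgeR, where 14.2% of all genes had one. Without SUS library 5 of Ly6C high monocytes, 1 member passed there. For Bcl3 the difference between Ly6C high monocytes and T cells did not pass (0.16, SE 0.37, adjusted p = 0.945).

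**Figure D4:**
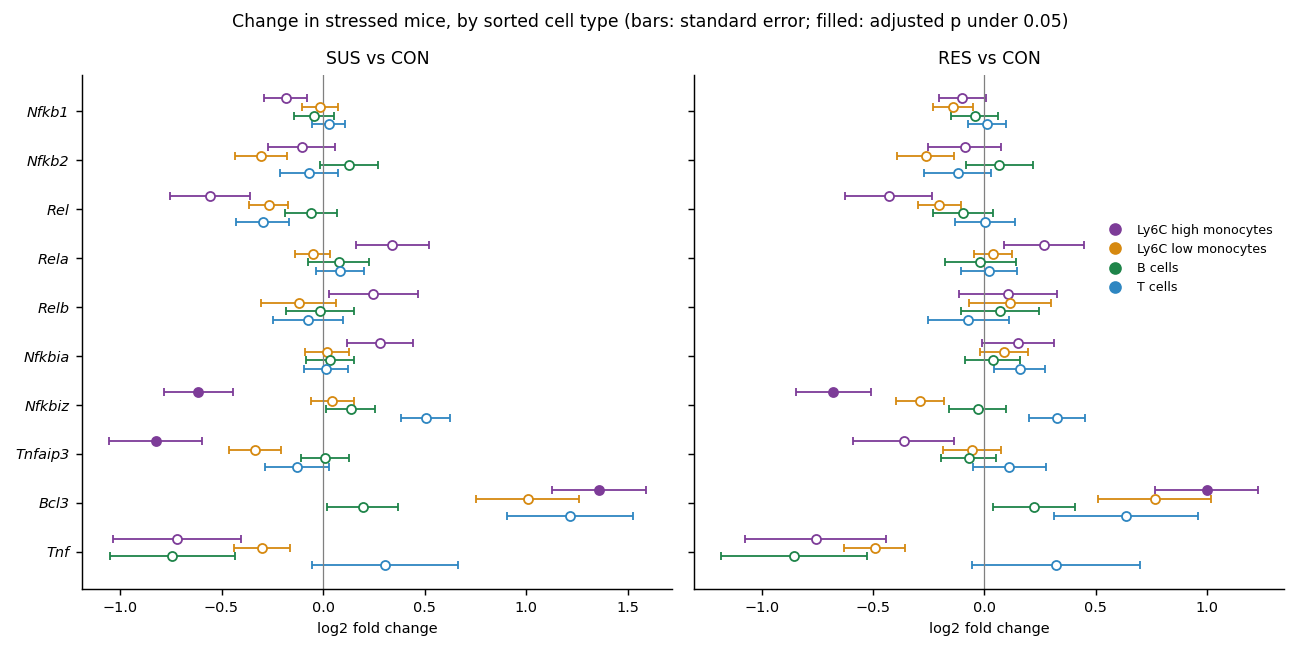
Log2 fold change of each member for SUS vs CON (left) and RES vs CON (right) in the 4 cell types, with standard errors from the fit. Filled points have an adjusted p under 0.05 and occur in Ly6C high monocytes (Bcl3, Nfkbiz and, for SUS mice, Tnfaip3).

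The rest of the pathway was followed through 69 further genes in 7 lists, of which 61 were tested in Ly6C high monocytes. There 3 rose and 5 fell in SUS mice, which is 13.1% of them against 12.6% of all genes. Their median log2 fold change was -0.07, against -0.05 for all genes. For RES vs CON 2 rose and 1 fell (4.92%, against 4.97% of all genes). In the other cell types 0 of the 53 to 64 genes tested passed, in any contrast.

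Of the 3 further IkB genes 2 fell. Nfkbie, which encodes IkB-epsilon, was at 73.1 ± 11.4 CPM in CON and 45.6 ± 8.71 CPM in SUS mice (log2 fold change -0.72, adjusted p = 0.00527). Nfkbid, which encodes the nuclear IkB-NS, was at 42.1 ± 10.9 and 25.9 ± 6.74 CPM (log2 fold change -0.72, adjusted p = 0.0279). Nfkbib did not pass.

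In the alternative branch 1 of 8 genes tested rose and 1 fell. Ltbr, the lymphotoxin beta receptor, rose from 77.0 ± 10.4 to 139 ± 44.9 CPM (log2 fold change 0.83, adjusted p = 0.00869). Traf3, which holds the kinase of this branch in check, fell from 113 ± 14.7 to 82.1 ± 23.2 CPM (log2 fold change -0.50, adjusted p = 0.0464). In the antigen receptor branch 1 of 6 genes fell. This was Malt1, a paracaspase that cleaves A20, with a log2 fold change of -0.75 (adjusted p = 0.0082) in SUS and -0.77 (adjusted p = 0.0206) in RES mice.

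None of the 11 IkB kinase and upstream kinase genes passed, and Map3k7, which encodes TAK1, had the smallest p (log2 fold change -0.38, adjusted p = 0.12). None of the 12 ubiquitin enzymes and A20 partners passed either. Nearest was Cyld, a deubiquitinase, with a log2 fold change of -0.53 (adjusted p = 0.0546). Among 7 TNF receptors and ligands tested, 0 passed, and Tnfsf14, which encodes the ligand LIGHT, came nearest with 1.13 (adjusted p = 0.062).

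Of the 14 target genes tested, 2 rose and 1 fell in Ly6C high monocytes of SUS mice. Ier3, an immediate early gene, rose from 1.01 ± 0.60 to 11.5 ± 8.13 CPM (log2 fold change 3.46, SE 0.62, adjusted p = 0.00161), and in RES mice it was at 6.46 ± 4.31 CPM (log2 fold change 2.64, adjusted p = 0.0196). Sod2, the mitochondrial superoxide dismutase, rose from 47.6 ± 6.90 to 70.0 ± 15.6 CPM (log2 fold change 0.53, adjusted p = 0.0283). Cxcl10, an interferon-induced chemokine, fell from 9.43 ± 0.90 to 2.29 ± 1.85 CPM (log2 fold change -2.08, adjusted p = 0.0165). The adhesion molecule gene Icam1 passed for RES vs CON (log2 fold change 0.67, adjusted p = 0.0343). The targets thus did not move one way as a group, with a median of 0.12 against -0.05 for all genes.

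Several members are known as rapidly induced genes, so 10 early response genes, which cells can switch on during handling, were followed beside them. Jun passed in Ly6C high monocytes of SUS mice (log2 fold change -0.68, adjusted p = 0.0143), and Atf3 in Ly6C low monocytes of SUS mice (log2 fold change -1.09, adjusted p = 0.0455). The summed level of the 10 genes was 1660 to 2020 CPM in CON and 1360 to 2210 CPM in SUS mice in Ly6C high monocytes. In T cells it was 426 to 477 CPM in CON and 474 to 523 CPM in SUS mice, with 0 of 10 genes passing. Their median log2 fold change for SUS vs CON was 0.48 in T cells and -0.13 in B cells. It was -0.06 in Ly6C low and -0.02 in Ly6C high monocytes. Over the libraries of a cell type, each member's deviation from its group mean was compared with that of the 10 genes, in 80 permutation tests (10 members, 4 cell types, Pearson and Spearman). None passed after adjustment. Since these tests use deviations from the group means, they do not bear on shifts between groups. The closest was Nfkbia in B cells, with r = 0.74 (permutation p = 0.00219, adjusted p = 0.0876) and rho = 0.77 (permutation p = 0.00109, adjusted p = 0.0872) over 17 libraries, and r was 0.52 without the 2 libraries farthest from the median.

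In unstressed mice the members were compared between the sorted cell types, pairs of which differed in 11.2 to 33.1% of all genes by the calls given below. Levels are given here per kilobase of exon. The length takes all annotated exons of a gene together, such as 12061 bases for Nfkb1 and 1610 for Nfkbia. It can exceed the length of the transcripts in use, so the order between genes depends on it. By this measure Nfkbia was highest of the 10 in every cell type. It ran from 55.2 ± 7.98 CPM per kb in T cells (SD, n = 6) to 112 ± 6.57 CPM per kb in B cells (SD, n = 6). In Ly6C low monocytes it was followed closely by Nfkbiz, at 69.3 ± 12.7 CPM per kb. In B cells Nfkb2 came second, at 60.0 ± 8.93 CPM per kb, and in Ly6C high monocytes and T cells Rela did, at 32.8 ± 2.93 and 26.7 ± 3.01 CPM per kb. The lowest were Tnf in B cells (5.40 ± 1.74 CPM per kb) and T cells (2.82 ± 1.30 CPM per kb), Tnfaip3 in Ly6C high monocytes (6.95 ± 1.26 CPM per kb) and Relb in Ly6C low monocytes (9.30 ± 1.84 CPM per kb). In Ly6C high monocytes Tnf, Relb and Tnfaip3 lay within their spread of each other, as did Relb, Tnfaip3 (9.61 ± 1.16 CPM per kb) and Bcl3 (10.4 ± 3.92 CPM per kb) in Ly6C low monocytes.

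**Figure D5:**
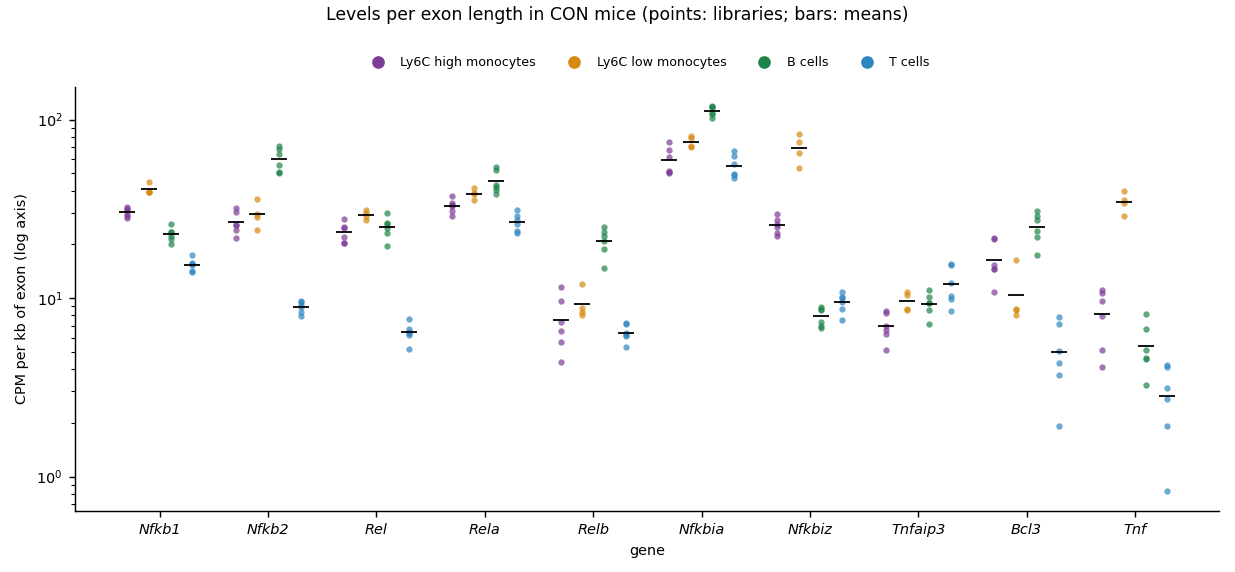
Levels of the 10 members in CON mice (CPM per kb of exon, log axis), with 1 point per library and a bar for the mean of each cell type. Nfkbiz and Tnf are set apart in Ly6C low monocytes, Nfkb2 and Relb in B cells, and Rel and Nfkb2 are lowest in T cells.

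Tests between cell types used the 22 CON libraries. No mouse is named in the labels, so cell types from 1 animal entered as independent libraries. Here a call needed both an adjusted p under 0.05 and a log2 fold change beyond 1 in either direction. Between Ly6C high and Ly6C low monocytes 2 of 10 members were called, where 11.2% of all genes were: Nfkbiz (log2 fold change -1.45, SE 0.12, adjusted p = 7.69e-10) and Tnf (-2.10, SE 0.32, adjusted p = 2.07e-05), both higher in Ly6C low monocytes. In bulk libraries more RNA per cell and more cells of an expressing kind within the gate cannot be told apart. The part of NK cells in the levels of the Ly6C low libraries was not tested.

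Nfkbiz was higher in both monocyte types than in both lymphocyte types. The monocyte types differed (log2 fold change -1.45 for Ly6C high vs Ly6C low) about as much as Ly6C high monocytes and T cells (1.44). Nfkbiz was at 348 ± 63.7 CPM in Ly6C low monocytes (n = 4), 128 ± 13.4 CPM in Ly6C high monocytes, 47.4 ± 5.99 CPM in T cells and 39.6 ± 4.76 CPM in B cells (SD, n = 6 each). T and B cells, the last neighbours in this order, differed slightly (log2 fold change -0.30 for B vs T cells, SE 0.11, adjusted p = 0.0371) and overlapped. Tnf followed a similar order, with 56.5 ± 7.40 CPM in Ly6C low monocytes, 13.3 ± 4.79 CPM in Ly6C high monocytes, 8.85 ± 2.86 CPM in B cells and 4.62 ± 2.14 CPM in T cells. Of its neighbours, Ly6C high monocytes and B cells did not pass (log2 fold change 0.62, SE 0.29, adjusted p = 0.0896).

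Nfkb2 and Relb, the subunits of the alternative branch, were highest in B cells. Nfkb2 was at 275 ± 40.9 CPM in B cells, 135 ± 22.8 CPM in Ly6C low monocytes, 122 ± 17.7 CPM in Ly6C high monocytes and 40.8 ± 3.05 CPM in T cells. The monocyte types did not differ in it beyond their spread (log2 fold change -0.16, SE 0.12, adjusted p = 0.442). Relb was at 81.0 ± 14.2 CPM in B cells and 24.8 ± 2.75 to 36.1 ± 7.14 CPM elsewhere. Between Ly6C high monocytes and B cells 3 of 10 members were called, against 33.1% of all genes: Nfkb2 (-1.14, SE 0.11), Relb (-1.44, SE 0.18) and Nfkbiz (1.74, SE 0.11). Between Ly6C low monocytes and B cells 4 of 10 were called, against 30.3% of all genes: Nfkbiz (3.18, SE 0.12) and Tnf (2.72, SE 0.33) were higher in the monocytes, and Relb (-1.12, SE 0.20) and Bcl3 (-1.22, SE 0.30) were lower.

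T cells had the lowest mean CPM for 8 of the 10 members, a count that was not made over all genes. Rel was at 47.9 ± 5.83 CPM there, against 174 to 219 CPM at the means of the other cell types, and Bcl3 at 12.4 ± 5.48 CPM, against 25.7 to 61.8 CPM. Between Ly6C high monocytes and T cells 5 of 10 members were called, against 32.8% of all genes: Rel, Nfkb2, Nfkbiz, Bcl3 and Tnf, all lower in T cells. Between Ly6C low monocytes and T cells it was 6 of 10, against 28.5%, with Nfkb1 added to these 5, and again all lower in T cells. Between B and T cells 4 of 10 were called, against 20.2%: Nfkb2, Rel, Relb and Bcl3, all lower in T cells. Among all genes called, 3521 of 6895 were lower in T cells than in Ly6C high monocytes. The same held for 3336 of 5990 against Ly6C low monocytes and 1888 of 4245 against B cells. Tnfaip3 went the other way and had its highest mean in T cells, at 86.2 ± 21.4 CPM, against 50.2 ± 9.07 CPM in Ly6C high monocytes (log2 fold change -0.78 for Ly6C high monocytes vs T cells, SE 0.15, adjusted p = 8.36e-05). B and T cells differed less in it (-0.40 for B vs T cells, SE 0.15, adjusted p = 0.0399) and overlapped. Ly6C low monocytes vs T cells did not pass (-0.30, SE 0.17, adjusted p = 0.162). Rela was called in none of these comparisons, with means from 82.0 ± 9.26 CPM in T cells to 138 ± 20.5 CPM in B cells. These 2 cell types did not overlap in it (log2 fold change 0.72 for B vs T cells, SE 0.10, adjusted p = 2.27e-06).

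Libraries 52 and 70 fit this pattern in the reverse of their labels. The library labelled as RES B cells had 29.3 CPM of Nfkb2 and 43.4 CPM of Rel, like T cells, and the library labelled as RES T cells had 299 CPM of Nfkb2 and 168 CPM of Rel, like B cells.

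For each member, the genes with the most similar levels over the 68 libraries were chosen by Pearson's r of log2 CPM among 10573 protein-coding genes, and the libraries share cell types, so r is only a description. For Nfkbiz they were Il31ra (0.96), Dnah12 (0.96) and Pparg (0.96), for Tnf Cd300ld4 (0.90), Bcl2a1a (0.90) and Pparg (0.90), and for Nfkb2 Swap70 (0.95), Icosl (0.95) and Ciita (0.95). Bcl3, Nfkbia and Tnfaip3 had their closest genes at 0.86 (Rasa3), 0.87 (Sipa1) and 0.84 (Chd3). Nfkb1 was closest to Map3k5 (0.96).

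Within a cell type, deviations from the group means gave 180 correlations between members (45 pairs in 4 cell types), of which the following were picked after their values were seen. Nfkb2 and Rela varied together in Ly6C high monocytes (r = 0.83, 18 libraries) and B cells (r = 0.92, 17 libraries), and r was 0.24 in Ly6C low monocytes (16 libraries) and -0.03 in T cells. For Relb and Bcl3 r was 0.87 in B cells, 0.49 in Ly6C low monocytes, 0.16 in Ly6C high monocytes and -0.01 in T cells. Rel and Rela varied in opposite ways in Ly6C high monocytes (r = -0.73), B cells (r = -0.67) and T cells (r = -0.64, 17 libraries), whereas r was 0.26 in Ly6C low monocytes. The genes of both positive pairs have 58.8 to 59.3% GC, and those of the negative pair 42.5 and 58.8%. The part of GC content in these correlations was not tested.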

How the data were processed

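RNA from sorted cells was amplified with a stranded total RNA kit for picogram input and sequenced in pairs. The authors aligned reads to mm10 with HISAT2, counted them per Ensembl gene with HTSeq and deposited raw counts, without normalization. Here 52489 of 52636 genes matched GENCODE M21 (GRCm38), which gave symbols, positions and exon lengths. Fits used edgeR 4.0.16 under R 4.3.3 (filterByExpr, TMM, robust quasi-likelihood fits, Benjamini-Hochberg adjustment over all genes tested). The 3 groups of a cell type, the 22 CON libraries, and the 12 groups for interactions were fitted as group means. SE is the absolute log2 fold change over the square root of F. Correlations used a pseudocount of 0.5 CPM and 100000 permutations within groups. Members and gene lists were chosen with earlier results of these data known. Named genes are the members, list genes that passed, and the smallest p per list. Alternatives included DESeq2 1.42.0, scalings, filters, covariates and each library left out. GC and length offsets were added after the data were seen. The fits were tested on simulated counts, with changed genes drawn without regard to the members' levels. For SUS vs CON, 41 (Ly6C high monocytes) to 60 (B cells) of 100 2-fold changes were recovered, and 60 to 80 of 100 4-fold ones. Of the calls, 1.65 to 6.48% fell on unchanged genes. The interaction tests recovered 18 to 25 of 100 2-fold changes, with 6.02 to 8.79% of calls on unchanged genes. Nothing states that libraries came from separate animals, so p-values measure the spread between libraries. No pair of libraries of a cell type held identical counts. Depth is given as total counts, and duplicate handling was not given in the sources used here.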

Additional observations from a re-analysis of the deposited data

Results flagged for a closer look

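Among 120 groups of a member, cell type and condition, 8 had a library far from the others of its group by Dixon's criterion, where chance gives about 1 in 20. In Ly6C high monocytes of SUS mice, library 14 had 211 CPM of Rela and 57.6 CPM of Relb, and library 17 had 52.8 CPM of Tnfaip3. In Ly6C low monocytes of CON mice, library 24 had 540 CPM of Nfkb1 and library 32 had 40.2 CPM of Bcl3. In B cells, SUS library 51 had 125 CPM of Rel and RES library 40 had 125 CPM of Nfkbia, the lowest of their groups, and in T cells RES library 61 had 50.7 CPM of Nfkb2, the highest.

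The change between SUS and CON mice differed between cell types for 3 members by the interaction test. That of Nfkbiz in Ly6C high monocytes was lower than that in T cells (difference -1.095) and in B cells (difference -0.71). That of Tnfaip3 was lower than in B cells (difference -0.79), and that of Bcl3 was higher (difference 1.19). Without CON library 16 or 4, or SUS library 11 or 14, 1 member passed against B cells. Bcl3 was lost there with DESeq2's size factors (adjusted p = 0.0671 in edgeR) and Tnfaip3 with only the 2 cell types in the fit (adjusted p = 0.0681).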

How the results depend on the processing

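In Ly6C high monocytes, members passing for SUS vs CON numbered 3, where 12.6% of all genes passed. They numbered 5 with DESeq2, where 24.9% of the genes it adjusted passed. With the red cell covariate they numbered 0, and with the fold threshold 1 (3.45% of all genes). With each library left out they numbered 1 to 4 (1 without CON library 16), where 1412 to 2742 genes passed in all. For RES vs CON the members passing numbered 2, where 4.97% of all genes passed. They numbered 0 with the red cell covariate or the fold threshold (0.997% of all genes). With each library left out they numbered 0 to 2 (0 without RES library 9, 15 or 18, 1 without CON library 1 or 16), where 108 to 1841 genes passed in all. For SUS vs CON DESeq2 passed 1 member in Ly6C low monocytes (1.15% of the genes it adjusted) and 2 in T cells (0.468%). Leaving out a library gave 0 to 1 members in Ly6C low monocytes for this contrast, where 9 to 86 genes passed in all. Members differing from B cells numbered 0 with GC and length offsets and 1 to 3 with each library left out (Bcl3 and Tnfaip3 were each lost in 6 of 16 such fits), those differing from Ly6C low monocytes 0 to 1 and those from T cells 1 to 2 (2 without SUS library 17). Between cell types, adjusted p alone gave 6, 7, 8 and 7 members for Ly6C high monocytes vs the Ly6C low ones, vs B cells and vs T cells and for Ly6C low monocytes vs B cells, and 10 for B vs T cells, where 19.3, 47, 45.7, 42.5 and 31.4% of all genes passed, and 9 for Ly6C low monocytes vs T cells (39.4%). With the fold threshold as well, leaving out a library gave 4 to 6 for B vs T cells, where 20.2% of all genes were called with none left out. Signs turned only for members that did not pass. With the red cell covariate these were, for SUS vs CON, Rela (-0.20) and Relb (-0.30), and for RES vs CON Rela (-0.17), Relb (-0.32), Nfkbia (-0.0536), Rel (0.0304) and Tnfaip3 (0.0325). With the offsets they were Rel (0.103) and Nfkb1 (0.0249) for RES vs CON, both below the median of all genes in that fit (0.216). With each library left out Nfkb2 ran from -0.275 to 0.00458 in SUS mice, positive without SUS library 5, and Relb from -0.0221 to 0.247 in RES mice, negative without CON library 1. DESeq2 put the median log2 fold change of all genes at -0.16 for SUS vs CON in Ly6C high monocytes, 1635 genes passed with it for RES vs CON, and 1646 with only the 2 groups compared in the fit, against 842. No paired analysis was possible because the groups share no replicate numbers. Depth was ample for the members, and Tnf in T cells, with 71 to 526 counts, was the least certain.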
